A study of Homo sapiens with 6 samples.

Results

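The genes described here encode the machinery of endoplasmic reticulum-associated degradation (ERAD). They were chosen by name, as 38 listed gene symbols, and all 38 were found among the 16376 genes of the table. Their transcripts were measured by RNA sequencing in HOS, an established human osteosarcoma cell line labelled as wild type. One group of 3 libraries came from HOS cells given Agrimol B, a phloroglucinol compound of agrimony, for 24 h. The other group of 3 libraries came from HOS cells labelled as having no treatment. No dose is given in the sources used here, and the labels do not say whether the control cells received the solvent. They also do not say whether the 3 libraries of a group came from separate cultures, so a p-value speaks only of the differences between these libraries, which may be technical.

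ERAD removes proteins that fail to fold in the endoplasmic reticulum (ER). Mannosidases and lectins read the sugars of a misfolded glycoprotein and hand it to a ubiquitin ligase in the ER membrane, of which HRD1 (gene SYVN1) with its partner SEL1L is the best known. The chain is ubiquitinated as it reaches the cytosol, pulled out by the ATPase VCP (also called p97), stripped of its sugars and passed to the proteasome. Several of these genes are classical targets of the unfolded protein response, the programme that raises folding and degradation capacity when the ER is overloaded.

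The deposited values are FPKM, fragments scaled by transcript length and by the number of mapped fragments, which allows levels of different genes to be set side by side. Between libraries FPKM also depends on what else the library holds: median-ratio size factors of the FPKM values were 0.977 to 0.984 in the controls and 1.025 to 1.032 with Agrimol B. Each library had 11993 to 12134 genes at 1 FPKM or more. Depth is hidden by this unit. From genes under 0.05 FPKM, whose values step with single reads, the libraries' depths relative to the first control library lay between 0.990 and 1.19, and Agrimol B libraries 2 and 3 were the deepest. The total number of reads remains unknown, so no counting interval can be given for a single value. Among markers of the labelled cell type, COL1A1 lay between 286 and 436 FPKM, VIM between 532 and 712 FPKM and RUNX2 between 4.76 and 8.16 FPKM. BGLAP was near 0 (at most 0.221 FPKM), and SP7 and IBSP had no row in the table analysed. The summed level of the 6 osteoblast markers with a row was 755 to 833 FPKM in the controls and 459 to 519 FPKM with Agrimol B, and that of 4 mesenchymal markers 754 to 769 and 565 to 579 FPKM. The epithelial marker EPCAM was present at 12.8 to 14.7 FPKM in both groups, while CDH1 stayed at or under 0.439 FPKM and the leukocyte marker PTPRC at or under 0.0578 FPKM. Of the 3 immune markers with a row, CD68 was at 4.02 to 4.59 FPKM in the controls and 7.49 to 10.3 FPKM with Agrimol B, while CD14 went the other way, from 1.19 to 1.81 FPKM to 0.393 to 0.774 FPKM. Their sum with PTPRC was 5.35 to 5.83 and 7.88 to 11.04 FPKM, and 4 endothelial markers summed to under 1 FPKM in every library. The part of these differences in the ERAD results was not tested.

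With Agrimol B, most ERAD transcripts were higher, led by HERPUD1 and UFM1, while the ATPase VCP was lower. Of the 38 genes, 22 rose and 2 fell by limma (adjusted p of at most 0.05 over the 12143 genes tested), and 14 did not pass the test. Among all tested genes 30.6% rose and 21.4% fell, against 57.9% and 5.26% of the ERAD genes. The median log2 difference, computed on log2(FPKM + 1), was 0.30 for the ERAD genes and 0.07 for all tested genes, and 32 of the 38 differences were positive, of which those of DERL3, UBXN6, BCAP31 and DNAJB12 turned negative under median-ratio scaling of the libraries. That scaling centres each library on its median ratio, which by design largely evens out rises and falls among all genes. It moved the median of all tested genes to 0.006 and that of the ERAD genes to 0.23. With it, 20 ERAD genes were higher and 2 lower, against 3089 higher and 3148 lower of all 12143 genes. In 23 of the 38 genes (60.5%) all 3 Agrimol B libraries lay above all 3 control libraries, and in 2 genes (5.26%) all 3 lay below. Over all tested genes these shares were 36.2% and 26.0%. All 38 genes passed the filter of a mean of at least 1 FPKM.

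The size of the rises was mostly modest. Of the 22 genes that rose, 7 had a log2 difference of at least that of a 1.5-fold change (18.4% of the ERAD genes, 9.68% of all tested genes) and 2 had one of at least 1 (5.26% against 2.35%). No ERAD gene fell by as much as 1.5-fold. Because RNA was taken from whole cultures, a change in a part of the cells and a smaller change in all of them cannot be told apart. The spread within groups was similar to that of other genes: the median coefficient of variation was 6.08% in control and 5.54% in Agrimol B libraries for the ERAD genes, and 6.63% and 6.81% for all tested genes.

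**Figure D1:**
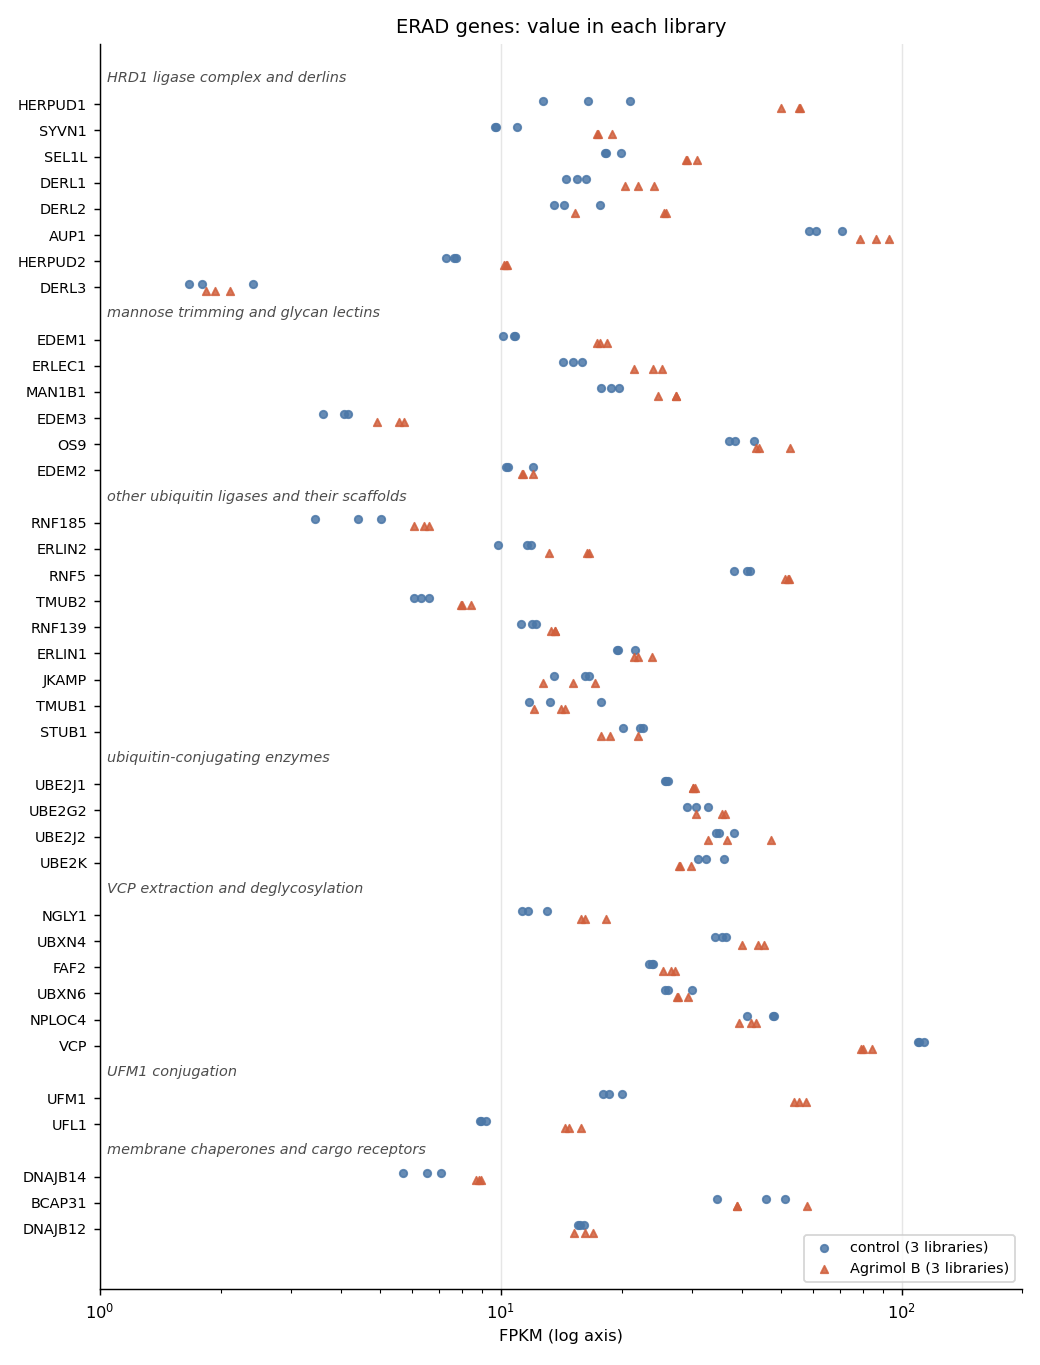
FPKM of each of the 38 ERAD genes (log axis) in the 3 control libraries (circles) and the 3 Agrimol B libraries (triangles), grouped by role and ordered within a role by the log2 difference. HERPUD1 and UFM1 sit at 12.7 to 21.0 and 17.97 to 20.1 FPKM in the controls and at 50.01 to 55.6 and 53.9 to 57.8 FPKM with Agrimol B, while VCP moves the other way.

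HERPUD1 had the largest difference of the 38. It encodes Herp, a short-lived membrane protein of the ER that helps assemble the HRD1 complex and is a known target of the unfolded protein response. The gene lies on chromosome 16, 56932048 to 56944863, plus strand (GENCODE release 29, GRCh38). Its value was 21.0, 12.7 and 16.5 FPKM in the control libraries and 55.3, 50.01 and 55.6 FPKM in the Agrimol B libraries. The control libraries varied more than for any other ERAD gene (coefficient of variation 24.7%), yet the groups did not overlap. The means were 16.8 ± 4.14 and 53.6 ± 3.15 FPKM (SD, n = 3 libraries per group), a ratio of 3.20, and the log2 difference was 1.65 ± 0.168 (SE, limma adjusted p = 0.000511). This placed HERPUD1 at rank 55 from the top among the 12143 differences.

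UFM1 came second and had the lowest adjusted p of the 38. It encodes a small ubiquitin-like modifier that is attached to ER-bound ribosomes and other targets at the ER surface. The gene lies on chromosome 13, 38349849 to 38363619, plus strand. UFM1 stood at 17.97, 18.6 and 20.1 FPKM in control and at 55.3, 53.9 and 57.8 FPKM with Agrimol B. The 2 groups were far apart and each was tight: the means were 18.9 ± 1.07 and 55.7 ± 2.00 FPKM (SD, n = 3 per group), a ratio of 2.95, with a log2 difference of 1.51 ± 0.0554 (SE, limma adjusted p = 2.04e-05). The UFM1 ligase gene UFL1 was at 9.17, 8.90 and 8.89 FPKM in control and at 15.9, 14.8 and 14.4 FPKM with Agrimol B. It rose 1.67-fold with no overlap between the groups (log2 difference 0.68, limma adjusted p = 0.000181).

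The promoters of these 2 genes, the largest rises, are shown because the unfolded protein response acts on ERAD genes through short DNA elements. Each window, from RefSeq on GRCh38.p14, runs from 250 bases before the transcription start to 50 bases after it, 5′ to 3′ on the strand of the gene. The HERPUD1 window is chr16:56931892-56932191 and the UFM1 window is chr13:38349601-38349900, both on the plus strand. Capitals mark a match to the ER stress response element II (ERSE-II), which is ATTGG, 1 base of any kind and CCACG.
HERPUD1: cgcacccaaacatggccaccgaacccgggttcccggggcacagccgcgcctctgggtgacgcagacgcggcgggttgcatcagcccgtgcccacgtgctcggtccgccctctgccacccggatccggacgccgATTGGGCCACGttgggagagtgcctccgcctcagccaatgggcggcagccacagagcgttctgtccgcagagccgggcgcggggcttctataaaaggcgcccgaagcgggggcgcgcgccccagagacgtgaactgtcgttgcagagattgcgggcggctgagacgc
UFM1: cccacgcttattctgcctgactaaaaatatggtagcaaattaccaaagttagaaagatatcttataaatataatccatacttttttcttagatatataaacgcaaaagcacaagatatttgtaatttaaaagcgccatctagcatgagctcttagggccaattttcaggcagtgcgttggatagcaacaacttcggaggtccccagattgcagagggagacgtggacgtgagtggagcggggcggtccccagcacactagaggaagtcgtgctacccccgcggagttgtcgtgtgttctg

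The capitals in HERPUD1 lie at positions -117 to -107 from the start, on the strand of the gene. HERPUD1 was the only 1 of the 31 ERAD genes with a promoter in the table to hold an ERSE-II, which was found in 0.0696% of 27305 genes when both strands were searched. The ERSE, which is CCAAT, 9 bases of any kind and CCACG, was found in 0 of the 31 and in 0.0916% of genes. Looser spellings of the ERSE were not searched. On the strand of the gene, the HERPUD1 window holds CCAAT, 9 bases and CCACA, which differs from the spelling only in its last base. The count therefore does not show that HERPUD1 lacks an ERSE. The site read by ATF4, searched as TGATG, 1 base of any kind and AAT, was also found in 0 of the 31 (1.22% of genes). That count holds for this spelling only, and looser spellings of the site were not searched. On the opposite strand, the HERPUD1 window holds a stretch that differs from the spelling only in its last base. The search therefore does not show that HERPUD1 lacks a site for ATF4. The unfolded protein response element (UPRE), searched as TGACGTGG or TGACGTGA, was found in UBE2J1, UBXN4 and VCP (1.44% of genes). The UFM1 window held none of these letters, which says nothing of elements outside it or of other spellings. Among 19 ER stress regulators and chaperones, listed for comparison, 5 held the ERSE and 2 held the ERSE-II. Of those with the ERSE, HSPA5, HSP90B1 and XBP1 rose, while CRELD2 and PDIA6 did not pass the test (log2 differences -0.07 and -0.02). No promoter was in the table for DERL1, DERL3, RNF139, RNF185, STUB1, ERLIN1 and ERLIN2.

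The UPRE matches are shown with 20 bases on each side (19 where the window ends), because 2 of the 3 genes rose and 1 fell. The UBE2J1 stretch is chr6:89352926-89352972, minus strand, with the match on the opposite strand of the gene. The UBXN4 stretch is chr2:135741710-135741757, plus strand, and the VCP stretch is chr9:35072787-35072834, minus strand, both with the match on the strand of the gene. Capitals mark the match.
UBE2J1: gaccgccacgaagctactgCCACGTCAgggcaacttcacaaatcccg
UBXN4: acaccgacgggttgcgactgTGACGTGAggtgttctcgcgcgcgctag
VCP: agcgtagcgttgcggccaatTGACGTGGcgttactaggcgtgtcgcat

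The same element thus stood in the promoters of UBE2J1 and UBXN4, which rose (log2 differences 0.22 and 0.27), and of VCP, which fell (-0.45). A match of letters is a description of the sequence and not evidence of binding.

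Most of the genes listed for the HRD1 ligase complex and the derlins rose. Of these 8 genes 6 rose, 0 fell and 2 did not pass the test, and the median log2 difference was 0.50. The shares that rose and fell were 75.0% and 0%, against 30.6% and 21.4% of all tested genes. SYVN1, which encodes the HRD1 ligase itself, was at 10.99, 9.71 and 9.69 FPKM in control and at 17.5, 17.4 and 18.9 FPKM with Agrimol B. It rose 1.77-fold (log2 difference 0.77 ± 0.0667 SE, limma adjusted p = 0.000285), and all Agrimol B libraries were above all controls. SEL1L, the adaptor that stabilises HRD1, was at 18.2, 19.9 and 18.3 FPKM against 29.1, 28.9 and 30.8 FPKM. It rose 1.57-fold, again without overlap (log2 difference 0.63 ± 0.0537 SE, limma adjusted p = 0.000270). SYVN1 overlaps FAU on its own strand, a ribosomal protein gene at 319 ± 9.92 FPKM without and 305 ± 7.72 FPKM with Agrimol B (SD, n = 3, limma adjusted p = 0.184).

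The derlins, membrane proteins thought to form part of the exit channel, did not all pass the test. DERL1 was at 16.3, 15.5 and 14.5 FPKM in control and at 20.4, 24.2 and 22.0 FPKM with Agrimol B, a 1.44-fold rise with no overlap (limma adjusted p = 0.00247). DERL2 was at 17.6, 13.6 and 14.3 FPKM in control and at 25.6, 15.3 and 25.9 FPKM with Agrimol B. The second Agrimol B library fell among the controls and DERL2 did not pass (log2 difference 0.49, 95% interval -0.03 to 1.02, limma adjusted p = 0.0997). Without that library its log2 difference was 0.73 (adjusted p = 0.00674). DERL3, which is best known from secretory cells, was the lowest ERAD gene of the 38, with 1.67 to 2.41 FPKM in control and 1.84 to 2.11 FPKM with Agrimol B (log2 difference 0.01, interval -0.25 to 0.27). HERPUD2, the paralog of HERPUD1, rose 1.36-fold, from 7.31 to 7.75 FPKM in control to 10.2 to 10.3 FPKM. AUP1, which recruits the conjugating enzyme UBE2G2 to the complex, rose 1.35-fold, from 58.9, 71.1 and 61.1 FPKM to 78.8, 93.0 and 86.1 FPKM (limma adjusted p = 0.00942).

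Among the 6 genes of mannose trimming and glycan recognition, 4 rose and 0 fell, with a median log2 difference of 0.42. The shares were 66.7% and 0%, against 30.6% and 21.4% of all tested genes. EDEM1, a mannosidase-like protein that marks glycoproteins for disposal, was at 10.8, 10.1 and 10.8 FPKM in control and at 17.7, 17.3 and 18.4 FPKM with Agrimol B. It rose 1.69-fold and the groups were well apart (log2 difference 0.70 ± 0.0496 SE, limma adjusted p = 0.000145). ERLEC1, a lectin that binds trimmed glycans, rose 1.56-fold, from 15.1, 14.3 and 15.9 FPKM to 21.4, 24.0 and 25.3 FPKM (limma adjusted p = 0.00108). MAN1B1, a mannosidase of the trimming step, rose 1.41-fold, from 17.8 to 19.7 FPKM to 24.7 to 27.4 FPKM (limma adjusted p = 0.00144). EDEM3 rose 1.37-fold from a low level of 3.60 to 4.17 FPKM. EDEM2, which acts early in trimming, had means of 10.9 ± 0.943 and 11.6 ± 0.425 FPKM and overlapping groups (log2 difference 0.08, 95% interval -0.09 to 0.25). For OS9, the other lectin of the HRD1 complex, the Agrimol B libraries (43.4 to 52.5 FPKM) lay just above the controls (37.2 to 42.8 FPKM), and the difference of 0.23 did not pass (limma adjusted p = 0.0755).

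**Figure D2:**
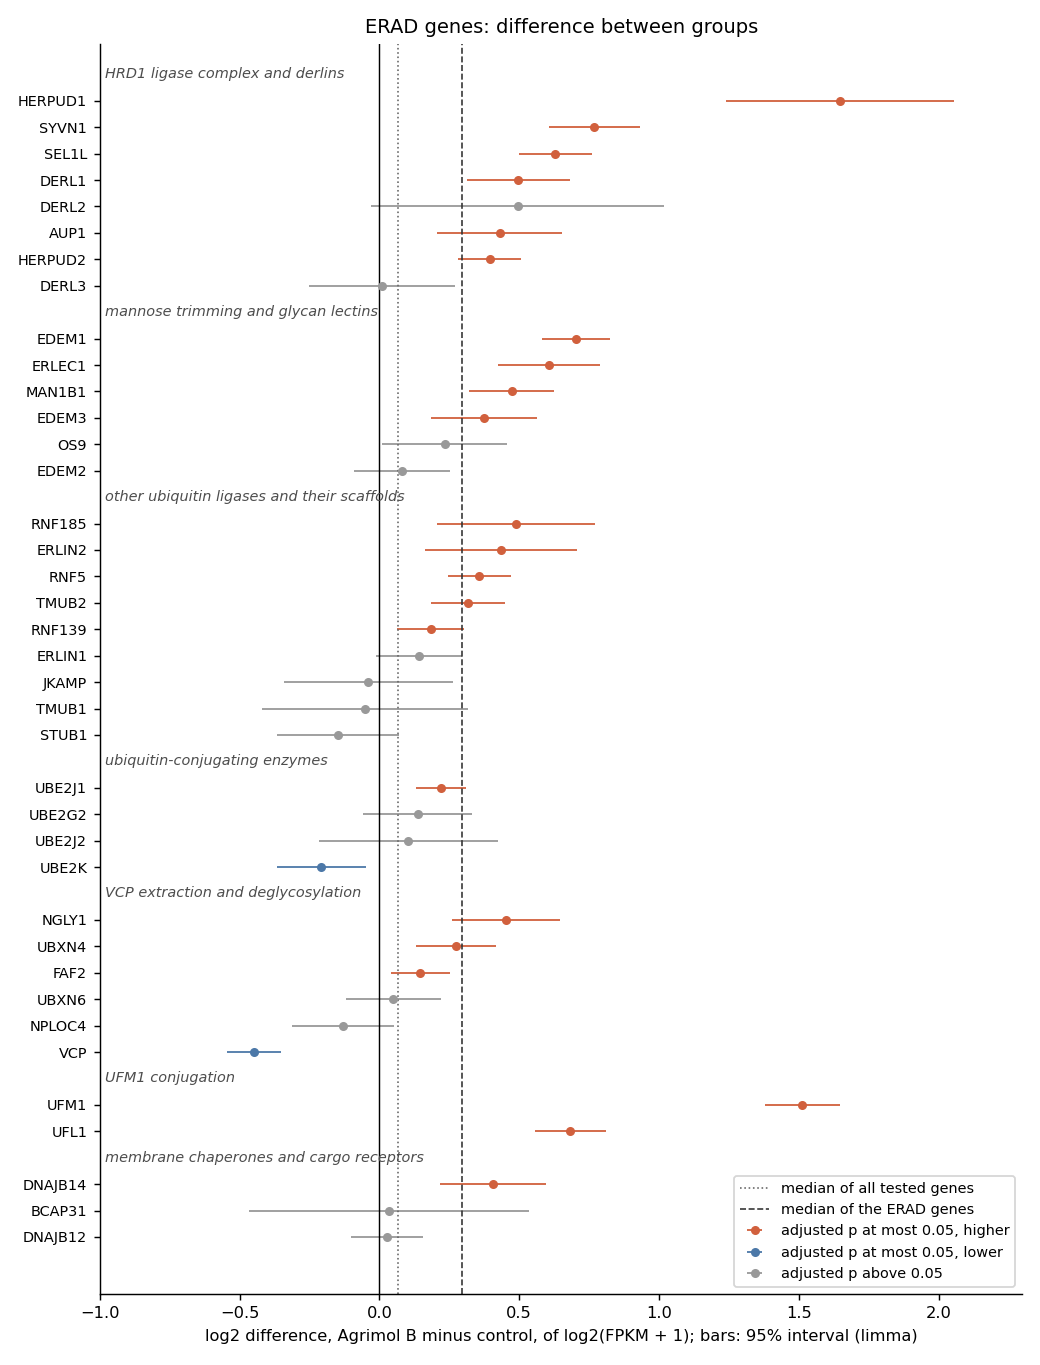
Log2 difference (Agrimol B minus control, of log2(FPKM + 1)) of each ERAD gene with its 95% interval from limma, grouped by role and coloured by whether the adjusted p was at most 0.05, with the medians of all tested genes (dotted line) and of the ERAD genes (dashed line). Most points lie to the right of 0, with HERPUD1 (1.65) and UFM1 (1.51) farthest, and VCP (-0.45) is the lowest.

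Of the 9 other ubiquitin ligases and their scaffolds, 5 rose, 0 fell and 4 did not pass, with a median log2 difference of 0.18. The shares that rose and fell were 55.6% and 0%, against 30.6% and 21.4% of all tested genes. RNF185 and RNF5 are closely related ligases of the ER membrane. RNF185 rose 1.49-fold, from 4.404, 3.45 and 5.01 FPKM to 6.07, 6.62 and 6.42 FPKM (limma adjusted p = 0.0138), without overlap. RNF5 rose 1.29-fold, from 38.1 to 41.7 FPKM to 51.2 to 52.4 FPKM (limma adjusted p = 0.00138). TMUB2, a ubiquitin-like membrane protein, rose 1.29-fold from a control range of 6.06 to 6.62 FPKM. ERLIN2, which with ERLIN1 forms a ring that presents inositol trisphosphate receptors to ligases, rose 1.39-fold, from 9.84 to 11.9 FPKM to 13.2 to 16.6 FPKM (limma adjusted p = 0.0187). Its call was lost without the first control, the second Agrimol B or the third Agrimol B library (adjusted p 0.0510 to 0.0603).

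The smallest rise of this class was that of RNF139, a ligase linked to sterol sensing, from 11.3 to 12.2 FPKM to 13.3 to 13.7 FPKM (1.15-fold, limma adjusted p = 0.0214). It was no longer called under median-ratio scaling (log2 difference 0.12, adjusted p = 0.0867) or without the first control, the first Agrimol B or the second Agrimol B library (adjusted p 0.0557 to 0.0621). ERLIN1 was at 19.5 to 21.6 FPKM and 21.5 to 23.9 FPKM (log2 difference 0.14, 95% interval -0.01 to 0.30). STUB1, the chaperone-linked ligase CHIP of the cytosol, was at 20.2 to 22.6 FPKM in control and 17.8 to 22.0 FPKM with Agrimol B. Its log2 difference of -0.15 did not pass (interval -0.37 to 0.07), and JMJD8, which overlaps it on the other strand, fell (-0.44, limma adjusted p = 0.00384). JKAMP, which links the proteasome to the ER membrane, and TMUB1, the paralog of TMUB2, had overlapping groups and differences of -0.04 and -0.05, with intervals of -0.34 to 0.26 and -0.42 to 0.32.

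Of the 4 ubiquitin-conjugating enzymes, which carry ubiquitin to the ligases, 1 rose and 1 fell, which is close to the 30.6% and 21.4% of all tested genes. UBE2J1, anchored in the ER membrane and paired with HRD1, was at 25.6, 26.1 and 25.8 FPKM in control and at 30.2, 30.1 and 30.5 FPKM with Agrimol B. It had the tightest groups of the 38, and the small rise of 1.17-fold passed (limma adjusted p = 0.00336). UBE2K, which extends ubiquitin chains, fell 1.16-fold, from 35.9, 32.5 and 31.0 FPKM to 27.8, 28.0 and 29.7 FPKM (limma adjusted p = 0.0372). That call was lost without the first or second control library or without the first or second Agrimol B library (adjusted p 0.0733 to 0.0976). UBE2G2 and UBE2J2 overlapped between groups, with log2 differences of 0.14 and 0.10 (intervals -0.06 to 0.33 and -0.22 to 0.42).

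At the extraction step the ATPase and its adaptors went different ways. VCP, the most abundant ERAD transcript in control cells, was at 113, 109 and 111 FPKM in control and at 80.0, 79.3 and 84.4 FPKM with Agrimol B. It fell 1.37-fold with no overlap (log2 difference -0.45 ± 0.0395 SE, limma adjusted p = 0.000299), and its share of the summed FPKM of the 38 genes was 12.7% to 12.9% without and 7.68% to 7.78% with Agrimol B. NPLOC4, which guides ubiquitinated chains to VCP, was at 41.1 to 48.0 FPKM and 39.3 to 43.2 FPKM (log2 difference -0.13, 95% interval -0.31 to 0.05). UBXN4 and FAF2, which tether VCP to the ER membrane, rose from 34.2 to 36.4 and 23.5 to 23.95 FPKM to 39.97 to 45.35 and 25.4 to 27.2 FPKM, or 1.22-fold (limma adjusted p = 0.00945) and 1.11-fold (limma adjusted p = 0.0317). The call of FAF2 was lost under median-ratio scaling (log2 difference 0.08, adjusted p = 0.160) and without any library except the second Agrimol B library (adjusted p 0.0679 to 0.0840). NGLY1, the glycanase that strips sugars from extracted proteins, rose 1.40-fold, from 11.7, 11.3 and 13.1 FPKM to 18.3, 15.9 and 16.2 FPKM (limma adjusted p = 0.00425). UBXN6, another VCP cofactor, did not pass (log2 difference 0.05, interval -0.12 to 0.22), while CHAF1A, which overlaps it on the other strand, fell (-0.46, limma adjusted p = 0.000267).

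Of the 3 membrane chaperones and cargo receptors 1 rose, again close to the share of all tested genes. DNAJB14, an ER membrane co-chaperone, rose 1.37-fold, from 7.07, 5.69 and 6.54 FPKM to 8.95, 8.69 and 8.83 FPKM (limma adjusted p = 0.00628). Its paralog DNAJB12 stood at 15.5 to 16.1 FPKM in control and 15.2 to 16.98 FPKM with Agrimol B (log2 difference 0.03, 95% interval -0.10 to 0.16). BCAP31, a membrane cargo receptor, ranged from 34.6 to 51.1 FPKM in control and from 38.8 to 57.9 FPKM with Agrimol B. Its interval of -0.47 to 0.53 shows how little the test could resolve for this gene.

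The order of the levels shifted. In control libraries VCP, AUP1, NPLOC4, BCAP31 and RNF5 had the highest mean FPKM. With Agrimol B the order began with AUP1 (86.0 ± 7.09 FPKM) and VCP (81.2 ± 2.77 FPKM, SD, n = 3), whose libraries overlapped, followed by UFM1 and HERPUD1. UFM1 moved from rank 16 to rank 3 and HERPUD1 from rank 19 to rank 4. The summed FPKM of the 38 genes was 859 to 885 without and 1026 to 1085 with Agrimol B.

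To compare related genes without regard to the scaling of a library, the ratio of their FPKM values was taken within each library for 13 pairs. With 3 libraries against 3 the smallest two-sided exact permutation p is 0.10, so none could pass a threshold of 0.05. In 8 of the 13 pairs the ratios of the groups did not overlap (exact permutation p = 0.1, 0.163 after Benjamini-Hochberg adjustment over the 13). That is close to the background of single genes, of which 36.2% lay above and 26.0% below all controls, so the count itself says nothing particular about these pairs. HERPUD1 was 2.74, 1.64 and 2.26 times HERPUD2 in control and 5.37, 4.92 and 5.38 times HERPUD2 with Agrimol B. EDEM1 and EDEM2 were about level in control libraries, with ratios of 1.03, 0.844 and 1.051, and EDEM1 was 1.56, 1.53 and 1.53 times EDEM2 with Agrimol B. The ratio of OS9 to ERLEC1 went from 2.61 ± 0.207 to 1.98 ± 0.148, and that of DNAJB14 to DNAJB12 from 0.407 ± 0.0412 to 0.547 ± 0.0216 (SD, n = 3). The other pairs without overlap were EDEM1 with EDEM3, EDEM2 with EDEM3, TMUB1 with TMUB2 and DERL3 with DERL1. The groups overlapped for DERL2 with DERL1, DERL3 with DERL2, UBE2J1 with UBE2J2, ERLIN1 with ERLIN2 and RNF5 with RNF185.

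**Figure D3:**
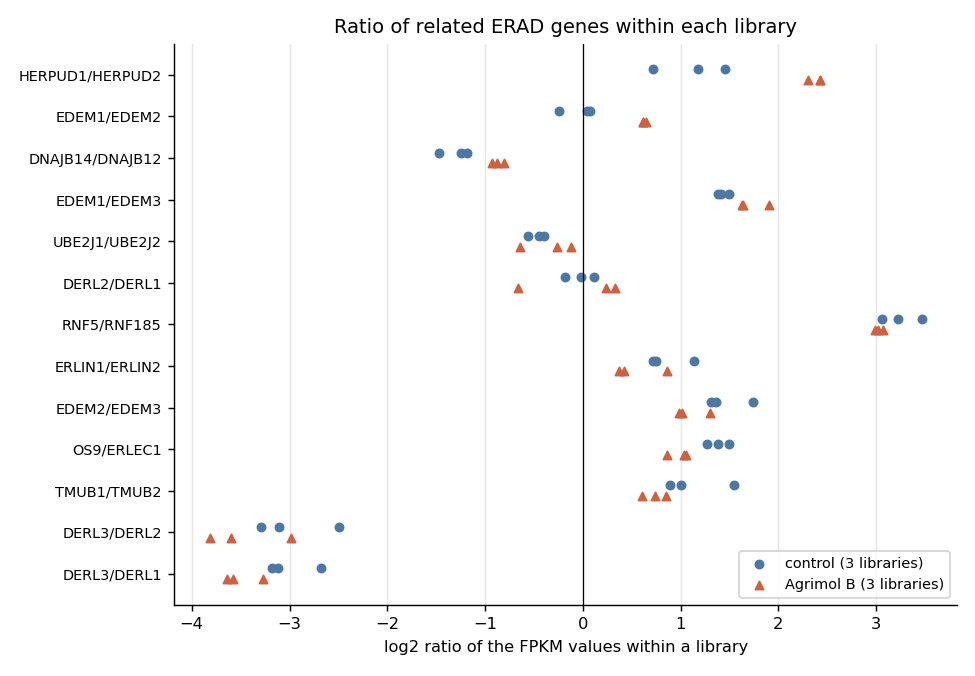
Log2 ratio of the FPKM values of 2 related ERAD genes within each library, for 13 pairs, in 3 control (circles) and 3 Agrimol B libraries (triangles). The ratio of HERPUD1 to HERPUD2 shifts farthest (by 1.27 on the log2 scale), and in 5 pairs the groups overlap.

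Other genes of the pathway were set beside these. Of 21 further ERAD ligases, scaffolds and folding factors, 10 rose and 2 (TRIM13 and UBE4B) fell, with a median log2 difference of 0.16. These shares were 47.6% and 9.52%, against 30.6% and 21.4% of all tested genes. SELENOS, which links derlins to VCP, was at 24.7, 25.1 and 20.2 FPKM in control and at 51.0, 50.4 and 55.4 FPKM with Agrimol B, a rise of 2.24-fold (limma adjusted p = 0.000231). RNF170 rose 1.71-fold and the glucosyltransferase family member UGGT2 1.61-fold. Of 27 genes listed for the cytosolic steps, not all of which encode cytosolic proteins, 10 rose (37.0%) and 8 fell (29.6%), with a median of 0.05. Both shares were only somewhat above the 30.6% and 21.4% of all tested genes, whose median was 0.07. These counts say nothing particular about the list. The largest differences there were those of FBXO2, a glycan-binding F-box protein that fell from 1.54 ± 0.112 to 0.526 ± 0.179 FPKM, HM13 (signal peptide peptidase), which rose 1.59-fold, and the deubiquitinase ATXN3, which rose 1.64-fold. UFD1, the partner of NPLOC4 on VCP, fell (log2 difference -0.35, limma adjusted p = 0.00370).

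Most other genes of the UFM1 pathway did not pass the test. Of 7 such genes, 2 rose, 0 fell and 5 did not pass, with a median log2 difference of 0.10. The share that rose (28.6%) was close to that of all tested genes (30.6%), so this count says nothing particular about the pathway. CDK5RAP3, an adaptor of the ligase, was at 28.0, 13.004 and 28.0 FPKM in control and at 35.7, 44.9 and 41.8 FPKM with Agrimol B (limma adjusted p = 0.0491), with the second control library far below the others. UFC1, the conjugating enzyme, was at 41.1 to 42.2 FPKM and 37.1 to 40.6 FPKM (log2 difference -0.09, limma adjusted p = 0.136). DDRGK1, the membrane anchor of the ligase, had a log2 difference of 0.10 (limma adjusted p = 0.169).

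Among 19 ER stress regulators and chaperones, 16 rose (84.2%, against 30.6% of all tested genes) and 0 fell, with a median log2 difference of 0.64. DDIT3, which encodes the transcription factor CHOP, was at 10.3, 6.24 and 8.62 FPKM without and at 91.6, 61.8 and 64.5 FPKM with Agrimol B (8.68-fold, limma adjusted p = 0.000147). XBP1, whose spliced form drives many ERAD genes, was at 23.2, 31.1 and 21.1 FPKM against 80.7, 92.2 and 139 FPKM (4.14-fold, limma adjusted p = 0.000890), and gene-level FPKM does not show whether it was spliced. HSPA5, the chaperone BiP, was at 155, 158 and 153 FPKM against 426, 439 and 453 FPKM (2.83-fold, limma adjusted p = 8.04e-06). In each of the 3 genes the groups were far apart. The 3 that did not pass were CRELD2, PDIA4 and PDIA6, with log2 differences of -0.07, -0.02 and -0.02. The sensors ATF6 and ERN1 (IRE1) rose by 0.83 and 1.24, and DNAJB9, a co-chaperone that assists ERAD, by 0.92, all on the log2 scale. Their limma adjusted p-values were 0.000150, 0.000113 and 0.000489.

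**Figure D4:**
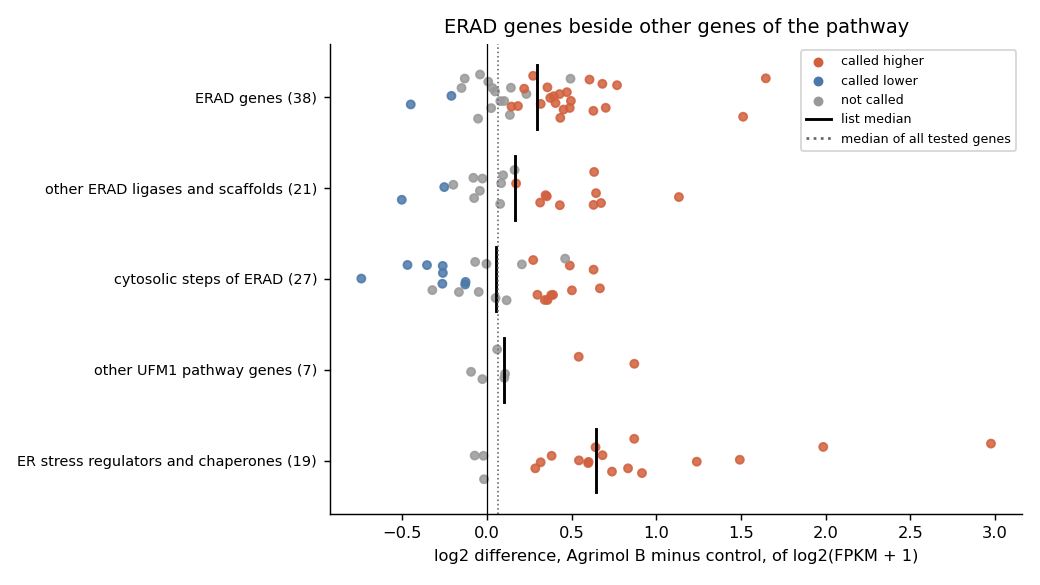
Log2 difference of each gene in the ERAD list and in 4 other lists of the pathway, coloured by call, with the median of each list (thick line) and of all tested genes (dotted line). The medians are 0.30 for the ERAD genes, 0.16 for other ligases and scaffolds, 0.05 for the cytosolic steps, 0.10 for the other UFM1 genes and 0.64 for the ER stress regulators and chaperones.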

How the data were processed

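HOS cell RNA was sequenced from 6 libraries prepared with a kit that keeps strand, as the labels' protocols state. The authors deposited FPKM values in a single table by gene symbol. FastQC, cutadapt, Trimmomatic, HISAT and hg38 appear in the submitters' processing notes with neither version nor role. The program, annotation and strand setting used for FPKM were not named in the sources used here. The Agrimol B columns carry the sample descriptions, and the control columns carry the same letters in another order with the same number.

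Values were analysed as log2(FPKM + 1), which understates changes of low genes. The 12143 genes whose mean over all libraries reached 1 FPKM were tested across the 6 libraries with limma 3.58.1 in R 4.3.3 (group term, variance trend, two-sided), adjusted by Benjamini-Hochberg over all of them. Folds are ratios of mean FPKM. Ratios of related genes were compared by exact permutation. The script was tested on simulated data. Python 3.11.15 did the rest.

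The 38 genes, the other lists, pairs and motifs were chosen with earlier results of these data known. The 12 largest called differences of ERAD genes and up to 3 called genes of each other list were to be given with values. Other list genes (TRIM13, UBE4B, UFD1, UFC1, DDRGK1, CRELD2, PDIA4, PDIA6, ATF6, ERN1, DNAJB9, HSP90B1) were chosen after their values were seen. Alternatives were the pseudocount, the filter, scaling, the variance trend, a replicate block and leaving out each library. Coordinates are from GENCODE release 29, promoters from RefSeq. The result of 1 gene of the other lists is not reported here.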

Additional observations from a re-analysis of the deposited data

How the results depend on the processing

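Over 14 alternatives, 20 of the 24 called ERAD genes kept their call and direction in each one run, and the 4 that lost it in at least 1 were RNF139, ERLIN2, UBE2K and FAF2. The median log2 difference of the ERAD genes moved to 0.234 with median-ratio scaling and 0.231 with quantile normalization, while the median of all genes moved to 0.006 and 0.007. Both scalings left 20 ERAD genes higher and 2 lower and turned 4 uncalled differences negative: DERL3 (-0.0355 and -0.0435), UBXN6 (-0.0158 and -0.0156), BCAP31 (-0.0324 and -0.0125) and DNAJB12 (-0.0373 and -0.0584). Replicate numbers did not pair the libraries (correlations of same-numbered deviations 0.0373, -0.00575 and -0.0146). With the replicate block 5776 genes were called against 6311 without it, 21 ERAD genes rose and 1 fell, DERL2 gained a call (adjusted p = 0.0472) and RNF139, UBE2K and FAF2 lost theirs. Leaving out 1 library gave 19 to 21 ERAD genes higher, 1 to 3 lower and a median of 0.265 to 0.327. It gained calls for DERL2 (higher), NPLOC4 (lower), STUB1 (lower) or UBE2G2 (higher), and the signs of 6 uncalled genes turned in some of these fits. Their ranges were -0.0623 to 0.115 for DERL3, -0.136 to 0.0670 for JKAMP, -0.171 to 0.107 for TMUB1, -0.0403 to 0.214 for UBE2J2, -0.155 to 0.150 for BCAP31 and -0.00926 to 0.0640 for DNAJB12. The cause of each change was not tested. With a filter of 5 FPKM, DERL3 and EDEM3 were no longer tested. The 91 alternative values of the 13 ratios, with 1 added to both values or 1 library left out, moved by less than the spread between libraries. Leaving out 1 of 3 libraries moves a group mean by less than that spread in any case, so stability cannot be read from this. For DERL2 with DERL1 the difference of the log2 ratios was -0.00328 with all libraries. It was -0.182 without the first and 0.310 without the second Agrimol B library. Unknown read totals limit the low genes most, DERL3 above all.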

Other observations

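DERL2 shares part of its locus on chromosome 17 (5471251 to 5486811, minus strand) with MIS12, a kinetochore gene on the other strand. MIS12 was at 10.97, 9.07 and 11.5 FPKM in control and at 29.5, 9.69 and 29.5 FPKM with Agrimol B, so that the second Agrimol B library lay among the controls for both genes. Whether reads of the pair were shared in counting was not tested. In all, 10 of the 38 ERAD genes overlap a gene of the table on the other strand and 2 (SYVN1 and ERLIN1) one on their own strand. For the called genes AUP1, DERL1, ERLEC1, NGLY1 and SYVN1, none of the overlapping genes passed the test (limma adjusted p 0.0855 to 0.467). ERLEC1, RNF5, JKAMP, FAF2 and BCAP31 have annotated pseudogenes by name, so their values are uncertain where reads could be split.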
